A study of Mus musculus with 12 samples.

Results

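The mouse genome carries the genes for miR-193 and miR-365 as neighbors in 2 places, and the 3 mature miRNAs made there, miR-365, miR-193, and miR-193b, were followed through osteoclast formation in culture. They are 3 of the 696 mouse miRNAs on the array used, and 3 of the 334 that were detected on at least 1 array. They were taken by name, as the array entries mmu-miR-365, mmu-miR-193, and mmu-miR-193b. The set was chosen by its array signals and detection marks over the days, which were already known, so its changes between days are given as a description and not as evidence from a test. On the array, miR-193 is the miRNA now called miR-193a-3p, miR-193b is miR-193b-3p, and miR-365 is miR-365-3p.

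Bone marrow cells from C57BL/6 male mice of 6 to 8 weeks were depleted of cells bearing B220/CD45R or CD3, the surface markers of B and T lymphocytes. All cultures received M-CSF (30 ng/ml), which keeps the osteoclast precursors alive, and RANKL (30 ng/ml), under which the precursors fuse into osteoclasts, and there was no group without RANKL. RNA was taken from 4 cultures described as independent at each of days 1, 3, and 5 and hybridized to 12 one-color arrays, 1 culture per array. The p values therefore rest on the spread between cultures and between arrays together, and with 4 arrays per day their number limits the precision.

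A miRNA is cut from a hairpin in a longer transcript, and the bases near its 5′ end, the seed, do most of the pairing with target mRNAs. miRNAs with the same seed are grouped in a family because they can pair with the same sites. Outside bone, miR-193b and miR-365 have been studied in brown fat differentiation, and the cell cycle gene cyclin D1 is among the described targets of this group, with miR-193 also known for repressing the receptor gene Kit and the survival gene Mcl1.

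The mature sequences from the 4 genes show which members are relatives in sequence and which only in position. They are printed 5′ to 3′ from RefSeq (GRCm38.p6), with the seed, bases 2 to 8, in capitals.
miR-193a-3p, from Mir193a on chromosome 11: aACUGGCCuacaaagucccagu
miR-193b-3p, from Mir193b on chromosome 16: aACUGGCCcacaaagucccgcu
miR-365-3p, from Mir365-2 on chromosome 11: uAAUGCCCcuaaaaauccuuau
miR-365-3p, from Mir365-1 on chromosome 16: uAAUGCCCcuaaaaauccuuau
miR-193 and miR-193b share their seed with each other and with no other of the 1679 mature miRNA names in the RefSeq table. Counted from 1 at the 5′ end of miR-193a-3p, their 22 bases differ by 3 substitutions, U9C, A20G, and G21C, all outside the seed. The seed of miR-365 belongs to that name alone. The sequence of miR-365-3p is identical from both genes, so its array signal adds up what the loci on chromosomes 11 and 16 produce.

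Mir193a lies on chromosome 11 at 79711969 to 79712034 and Mir365-2 at 79726400 to 79726511, both on the + strand and 14365 bases apart. Mir193b lies on chromosome 16 at 13449523 to 13449601 and Mir365-1 at 13453840 to 13453926, also both on the + strand and only 4238 bases apart. No gene of the RefSeq table begins and ends between the members of either pair. On chromosome 16 both hairpins fall within the bounds of 2 noncoding genes annotated on the same strand, Gm32817 and Gm53058, whereas no annotated gene spans the pair on chromosome 11. Whether the hairpins lie in exons or introns of those genes cannot be read from the table, which gives gene bounds only.

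**Figure D1:**
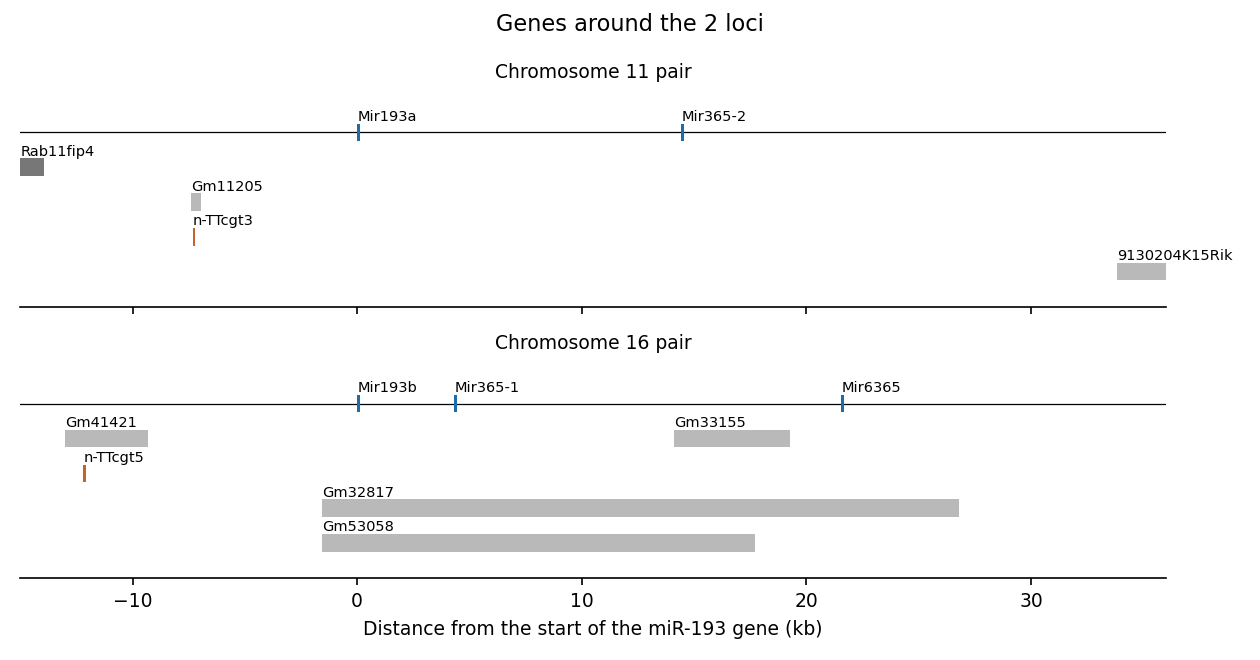
Genes around the pair on chromosome 11 (top) and the pair on chromosome 16 (bottom), drawn to scale as the distance in kb from the start of the miR-193 gene. The miR-193 and miR-365 genes (blue) are 14365 bases apart in the upper map and 4238 in the lower, where the noncoding genes Gm32817 and Gm53058 (gray) cover both.

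The hairpins show the same relation at the level of the precursors. The mature strand that the array measures is in capitals.
Mir193a: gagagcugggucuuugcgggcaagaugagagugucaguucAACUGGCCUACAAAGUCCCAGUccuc
Mir193b: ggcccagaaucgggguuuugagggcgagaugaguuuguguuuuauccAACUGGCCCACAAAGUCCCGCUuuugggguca
Mir365-2: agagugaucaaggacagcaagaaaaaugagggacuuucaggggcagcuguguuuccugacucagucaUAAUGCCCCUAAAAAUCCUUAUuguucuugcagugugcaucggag
Mir365-1: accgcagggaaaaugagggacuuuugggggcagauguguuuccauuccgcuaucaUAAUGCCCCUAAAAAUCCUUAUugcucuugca
The opposite strands, which lie in the 5′ arm of each hairpin, differ between the loci. From miR-365-1-5p to miR-365-2-5p, both of 23 bases, the substitutions are U10C, G11A, and A19C. From miR-193a-5p to miR-193b-5p they are U1C, U5G, C6U, C11A, and A16G. Of these 4 opposite strands the array names 1, miR-193*, which is miR-193a-5p of the locus on chromosome 11. The other opposite strands were not analysed here.

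Each member was read by a pair of DNA probes, spotted to 20 spots in all. The probes of miR-193 and miR-193b pair with the 3′ part of the miRNA, from base 6 or 7 on, and those of miR-365 with the miRNA from base 1 or 2 to its end. The longer probe of each is shown 5′ to 3′, since the likeness of miR-193 and miR-193b decides how far their signals are separate.
miR-193 probe: actgggactttgtaggc
miR-193b probe: agcgggactttgtgggc
miR-365 probe: ataaggatttttaggggcatta
The 17-base probes of miR-193 and miR-193b agree at 14 bases and differ by C2G, T3C, and A14G, counted from 1 at the 5′ end of the miR-193 probe. Each probe matched exactly 1 mature miRNA name over its whole length. How much of each miRNA bound to the probe of the other was not tested.

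The arrays differed in ways that bear on these values. Slide 1 carried the arrays of days 1 and 5, and slide 2 those of day 3, so that a difference of day 3 from the other days cannot be told apart from a difference between slides. Between 186 and 276 miRNAs were detected per array, the lowest number on day 5 replicate 4. Relative to day 1, the summed signal of all miRNAs came to 58.6% on day 3 and to 80.7% on day 5. Signals were quantile normalized, so that a normalized change is relative to the other miRNAs, raised to a floor of 1, and converted to log2.

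miR-365 was low at day 1 and high at both later days. Its scanner signal, a linear intensity after background subtraction and before any normalization between arrays, was 649, 440, 642, and 364 on the 4 arrays of day 1. At day 3 it was 3434, 2843, 2951, and 3224, and at day 5 it was 5667, 4726, 5061, and 5348. All 12 arrays marked it as detected, and the signal was between 9.12 and 14.1 times the error that the scanner software gives for it. No array of 1 day overlapped with an array of another on this scale.

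On the normalized log2 scale miR-365 was at 8.80, 8.46, 8.90, and 8.55 at day 1, at 12.13, 12.13, 12.06, and 12.31 at day 3, and at 12.13, 12.22, 12.16, and 12.47 at day 5. The means were 8.68 ± 0.21, 12.16 ± 0.11, and 12.25 ± 0.16 (SD, n = 4). The lowest later array lay 3.16 (day 3) and 3.23 (day 5) log2 units above the highest array of day 1, whereas days 3 and 5 overlapped. The change from day 1 was 3.48 at day 3 and 3.57 at day 5 (SE 0.12 for both), which is 11.2-fold and 11.9-fold. On this scale the level at day 3 held 97.6% of the log2 change seen at day 5. Without normalization the changes were 2.61 at day 3 and 3.35 at day 5, and day 3 was on a slide of its own.

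**Figure D2:**
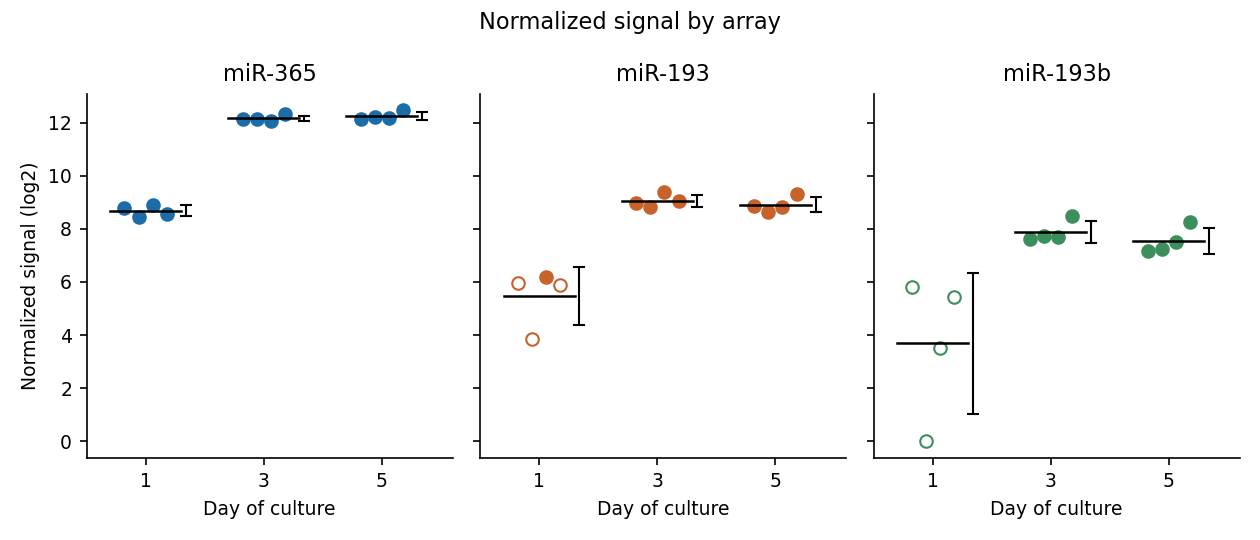
Normalized signal (log2) of miR-365, miR-193, and miR-193b on each of 4 arrays per day of culture, with the mean (line) and SD (bar). Filled circles mark detection and open circles its absence; all later arrays lie above all day 1 arrays for each miRNA, and days 3 and 5 overlap.

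miR-193, from the locus on chromosome 11, had a similar course from a level near the detection limit. The scanner signals were 110, 37.6, 104, and 77.6 at day 1, where only replicate 3 was marked as detected. They were 428, 306, 448, and 368 at day 3, and 559, 372, 460, and 596 at day 5, with detection on all 8 of these arrays. Signal over error was between 1.61 and 3.11 at day 1 and between 6.14 and 11.2 at the later days. Every later array exceeded every array of day 1, and the ranges of days 3 and 5 overlapped.

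The normalized log2 values of miR-193 were 5.95, 3.87, 6.19, and 5.90 at day 1, then 8.96, 8.82, 9.39, and 9.05 at day 3, and 8.86, 8.64, 8.82, and 9.32 at day 5. The means were 5.48 ± 1.08, 9.05 ± 0.24, and 8.91 ± 0.29 (SD, n = 4), and replicate 2 of day 1 stood below the others. The change from day 1 was 3.58 at day 3 (SE 0.45, 11.9-fold) and 3.43 at day 5 (SE 0.45, 10.8-fold). Day 5 minus day 3 was -0.14. The size of the rise depended on the treatment of the dim day 1 values. With normexp background correction day 5 minus day 1 was 1.28. With the values that the authors deposited it was 8.42, where day 1 rested on the single array with a value, 0.20, for which the log2 of the scanner signal was 6.71.

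miR-193b, from the locus on chromosome 16, was the dimmest against its own error and was marked as detected on none of the day 1 arrays. The scanner signals there were 100.2, 10.4, 44.9, and 61.7, between 0.452 and 2.01 times their error. At day 3 they were 148, 147, 132, and 264, and at day 5 they were 138, 108, 155, and 332, with detection on all 8 arrays. Replicate 4 was the highest at both later days. All later arrays lay above all arrays of day 1, although day 5 replicate 2 (108) was close to day 1 replicate 1 (100.2).

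The normalized log2 values of miR-193b were 5.81, 0.00, 3.52, and 5.45 at day 1, 7.61, 7.74, 7.69, and 8.50 at day 3, and 7.18, 7.24, 7.50, and 8.26 at day 5. The value of 0.00 is the floor. The means were 3.69 ± 2.66, 7.88 ± 0.41, and 7.54 ± 0.50 (SD, n = 4). Since day 1 was not detected, its rise has only a bound, in which each day 1 array enters with its measured value or with the 5th percentile of the signals detected on it, whichever was higher. On this quantile normalized scale miR-193b was at least 3.36-fold higher at day 3 and at least 2.65-fold higher at day 5. The lowest signal of a detected miRNA gave no bound here, since on 3 of the day 1 arrays it was itself at the floor. The fitted differences, 4.19 and 3.85 on the log2 scale (SE 1.06 for both), rest on the undetected values, and with normexp background correction they were 0.83 and 0.72.

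**Figure D3:**
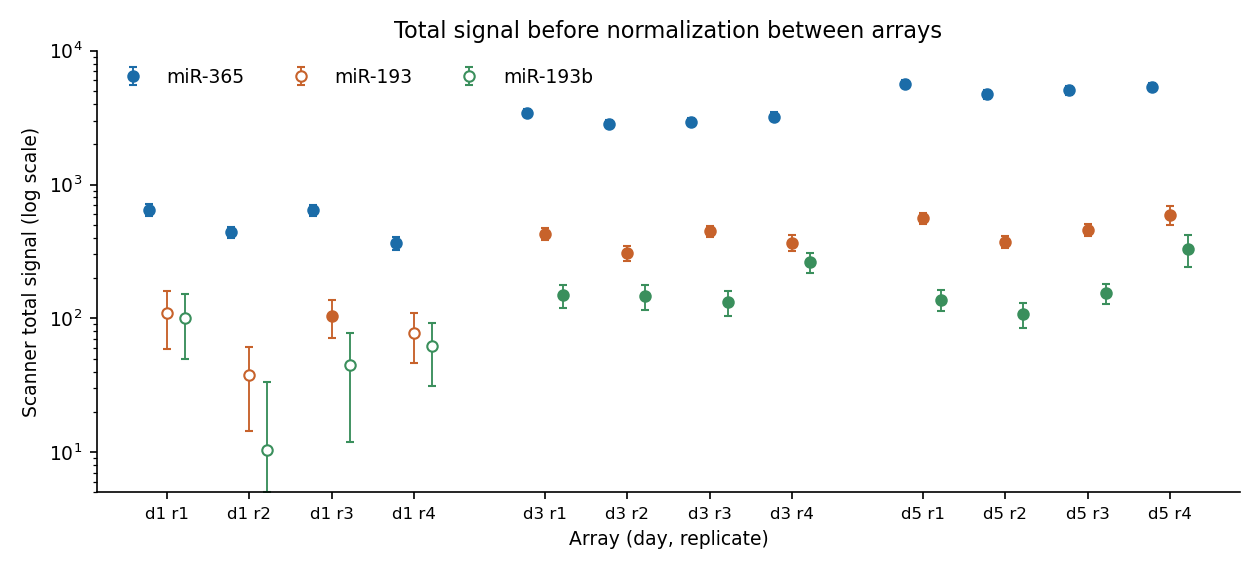
Scanner total signal (log axis) of miR-365, miR-193, and miR-193b on each array, labeled by day (d) and replicate (r), before normalization between arrays. Bars show the error given by the scanner software, cut at the lower edge of the axis, and open circles mark arrays without detection, which are at day 1 only.

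The rises from day 1 were also present without normalization between arrays. The ratio of the mean scanner signals of day 3 to day 1 was 5.94 for miR-365, 4.70 for miR-193, and 3.19 for miR-193b. For day 5 over day 1 the ratios were 9.93, 6.02, and 3.37. In bulk RNA a higher signal from more expressing cells and from more RNA per cell cannot be told apart.

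All 3 members passed the moderated F test of limma over the 3 days at an adjusted threshold of 0.01, as did 62.9% of the 334 miRNAs tested, and all 3 also differed by more than 2-fold, as did 46.7%. From day 1 to day 3 all 3 were counted as higher beside 27.2% of all miRNAs tested, and from day 1 to day 5 all 3 beside 31.7%. From day 3 to day 5 none of the 3 was counted as higher (background 14.7%). The changes were 0.09 for miR-365 (SE 0.12), -0.14 for miR-193 (SE 0.45), and -0.34 for miR-193b (SE 1.06), each within its SE. Of the 12 fits that left out 1 array, 6 no longer counted miR-193b as higher at day 3 and 9 no longer did at day 5, with changes of 3.07 to 4.95 and of 2.73 to 4.61. All 4 later arrays lay above all 4 arrays of day 1 for 29.9% of all miRNAs at day 3 and for 32.6% at day 5. These counts are set side by side only, because the members were chosen for this pattern. Of the miRNAs counted as changed from day 1 to day 5, 52.2% were higher, against 38.7% without normalization and 38.9% when arrays were scaled by a 75th percentile, that of the always detected miRNAs.

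The difference between days 3 and 5 depended on the scale. The scanner signal of miR-365 was higher on every array of day 5 than on any of day 3, with a ratio of means of 1.67, whereas the normalized values of these days overlapped. The ratio was 1.28 for miR-193 and 1.06 for miR-193b, with overlapping ranges, and their normalized means were lower at day 5. The summed signal of all miRNAs also rose over these days, and without normalization the median change of all miRNAs tested was 0.36 on the log2 scale. Relative to that median, day 5 minus day 3 was 0.38 for miR-365, -0.01 for miR-193, and -0.36 for miR-193b.

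Comparison within an array removes its overall scale. The log2 scanner signal of miR-365 minus that of miR-193 was 3.01, 3.22, 2.72, and 3.13 at day 3 and 3.34, 3.67, 3.46, and 3.16 at day 5. The means were 3.02 ± 0.22 and 3.41 ± 0.21 (SD, n = 4) and the change was 0.39 (SE 0.15). The ranges of these 2 days overlapped by day 5 replicate 4 alone. miR-365 minus miR-193b went from 4.22 ± 0.43 to 4.96 ± 0.66, a change of 0.74 (SE 0.39), and miR-193 minus miR-193b from 1.21 ± 0.57 to 1.56 ± 0.51, a change of 0.35 (SE 0.38). These differences describe unequal change and not relative abundance, since each miRNA has its own probes. At day 1 the same differences ranged from 2.23 to 3.55 for miR-365 minus miR-193 and from 2.56 to 5.40 for miR-365 minus miR-193b, with most of the day 1 values of the second miRNA not detected.

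The spread among arrays of the same day differed between the members. Pooled over days 3 and 5 the SD was 0.13 for miR-365, 0.26 for miR-193, and 0.46 for miR-193b, beside a median of 0.13 for the 165 miRNAs detected on all 8 of these arrays. The deviations of miR-365 and miR-193b from their day means correlated at 0.93 over the 8 arrays, those of miR-365 and miR-193 at 0.42, and those of miR-193 and miR-193b at 0.54. The points share the array and its normalization, and replicate 4 was the highest for miR-365 and miR-193b on both days.

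The different probes of each miRNA gave the same direction. For miR-365 the mean processed signal at day 5 was 9.93 and 10.0 times that of day 1 with the probes of 21 and 22 bases. For miR-193 the ratios were 5.80 and 6.14 with the probes of 16 and 17 bases. For miR-193b they were 3.94 and 3.06, and with the 17-base probe not every day 5 array exceeded every day 1 array. Of 40 spots per probe and day, the 17-base probe of miR-193 had 1 well above background at day 1 and 40 at days 3 and 5. Its 16-base probe had only 0, 12, and 19 at days 1, 3, and 5. The 17-base probe of miR-193b had 0, 12, and 12 and its 16-base probe 0, 3, and 5, whereas both probes of miR-365 had 40 on each day.

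The opposite strand miR-193* was not used to choose the members and was tested with them. Its scanner signals were -16.0, 48.4, 15.0, and -3.44 at day 1, 51.5, 7.54, 38.9, and 6.01 at day 3, and 97.2, 63.3, 49.9, and -124 at day 5. It was marked as detected only on 3 arrays of day 5, and the array without detection, replicate 4, had the lowest signal of all 12. The fitted change was 3.44 at day 5 (SE 1.56, limma adjusted p = 0.0709) and 3.76 at day 3 (SE 1.56, adjusted p = 0.0560), neither past the threshold. Without day 5 replicate 4 the changes were 4.97 (adjusted p = 0.00399) and 4.06 (adjusted p = 0.00844), so that the call depended on 1 array. All values of miR-193* at days 1 and 3 were below detection, so these fitted changes rest on undetected values. By the bound used for miR-193b no rise was shown at day 5, where the mean was 4.60 and the bound for day 1 was 6.14.

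In the order of the change from day 1 to day 5, from the largest rise down, miR-193b was at place 27 of 334, miR-365 at 29, and miR-193 at 32. Around them were miR-29a* (4.46), miR-301b (4.28), miR-1981 (3.95), miR-330* (3.75), miR-505-3p (3.50), miR-200b (3.36), miR-28 (3.23), and miR-34b-3p (3.17). Of these 8, only miR-200b and miR-28 were detected on every array of both later days, and each step between neighbors in the order was smaller than the larger of their SEs. Among the 148 miRNAs detected on all 12 arrays, miR-365 had the second largest rise at days 3 and 5, below miR-378 (4.84 and 5.17).

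**Figure D4:**
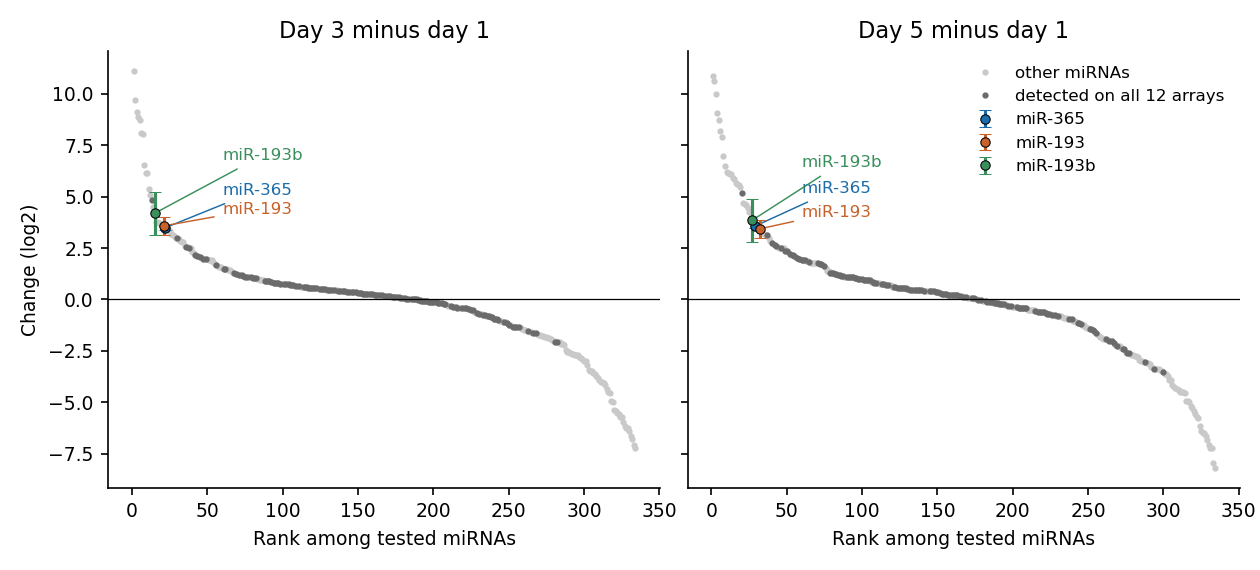
Change from day 1 (log2) of the 334 miRNAs tested, ordered from the largest rise, at day 3 (left) and day 5 (right), with 1 SE for miR-365, miR-193, and miR-193b. At day 5 the members take places 29, 32, and 27, and dark points are the 148 miRNAs detected on all 12 arrays.

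The profiles most like that of each member over the 12 arrays were found by Pearson correlation among the miRNAs detected on all arrays. For miR-365 they were miR-674* (0.998), miR-23a (0.996), miR-378 (0.994), miR-185 (0.992), and miR-125b-5p (0.979). For miR-193 they were miR-1937b_v16.0 (0.963), miR-365 itself (0.958), miR-345-5p (0.955), miR-484 (0.953), and miR-23a (0.944). For miR-193b they were miR-345-5p (0.886), miR-140* (0.841), miR-181b (0.839), miR-1937b_v16.0 (0.831), and miR-365 (0.83). miR-193 and miR-193b correlated with each other at 0.928. All points share the same 3 days, and 34 of 147 miRNAs were above 0.9 with miR-365. The sizes of the steps differ, since miR-23a changed by 0.56 from day 1 to day 5 and miR-378 by 5.17. After quantile normalization miR-23a had the same value on all arrays of a day (SD 0), so its correlations reflect only the step between days.

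miRNAs known to repress cyclin D1, other than the members, were called at shares near those of all miRNAs. Of 12, all tested, 3 rose and 4 fell from day 1 to day 5, where 31.7% of all miRNAs tested rose and 29.0% fell. Their median change was -0.22 beside 0.11 for all miRNAs. From day 1 to day 3, 2 rose and 3 fell, where 27.2% of all rose and 25.1% fell. miR-19a rose by 1.05 (SE 0.16, limma adjusted p = 0.000122) and miR-34a, a known p53 target, by 1.00 (SE 0.12, adjusted p = 2.52e-05). miR-20a fell by 0.67 (adjusted p = 4.86e-05) and miR-16 fell by 0.40 (adjusted p = 0.00115). The fitted changes of the 12 were smaller than those of the members. This is no result about the 12, because the members were chosen with their changes known. That of miR-193b also rests on undetected values. Instead of 7, 2 of the 12 passed with scaling to the 75th percentile of all miRNAs, and 4 with the median, without normalization, or with days 1 and 5 only.

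Of 12 miRNAs linked to brown fat, 9 were tested, of which 6 were counted as higher and 1 as lower from day 1 to day 5. The median change of the 9 was 0.81. Among all miRNAs tested, 31.7% were counted as higher and 29.0% as lower, with a median of 0.11. miR-378, which lies in an intron of Ppargc1b, rose by 5.17 (SE 0.07, limma adjusted p = 3.29e-13). miR-455 and miR-182 were detected on no array of day 1 and on all 8 later arrays, as was miR-193b. At day 5 miR-455 was at least 22.2-fold and miR-182 at least 7.52-fold higher, by the bound used for miR-193b. All their day 1 values were at the floor. Their limma adjusted p values (4.78e-15 and 1.83e-15) belong to the fitted changes from that floor and not to these bounds. miR-196a, 1 of the 6, passed the test with detection on 2 arrays, both at day 5. Its mean at day 5, 6.13, was not above its bound for day 1, 6.14, so no rise was shown. miR-155, which rises with inflammatory activation of macrophages and represses brown fat differentiation, fell by 1.05 (SE 0.25, adjusted p = 0.00368). miR-133a, miR-133b, and miR-203 were detected on no array. Instead of 7, 3 passed among miRNAs detected on all 12 arrays, and 4 with the 75th percentile of all miRNAs, the median, no normalization, or the deposited values.

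Of 6 miRNAs known to be induced by NF-kB, the transcription factor that RANKL activates, 4 were tested. miR-146a rose by 1.16 from day 1 to day 5 (limma adjusted p = 0.000343), with a change of -0.03 from day 1 to day 3. miR-155 and miR-132 fell by 1.05 and by 0.93 (adjusted p = 0.00368 and 0.000571). From day 3 to day 5 these 3 of the 4 were counted as higher, beside 14.7% of all miRNAs tested. miR-146a rose by 1.19 (adjusted p = 0.000915). The fitted changes were 1.40 for miR-155 (adjusted p = 0.00155) and 1.08 for miR-132 (adjusted p = 0.000674). Neither was detected at day 3, so these rest on undetected values. By the bound used for miR-193b, miR-132 was at least 1.37-fold higher at day 5. The mean of miR-155 at day 5, 6.88, was below its bound for day 3, 7.20, so no rise was shown. From day 1 to day 5 miR-21 changed by 0.21 and did not pass (adjusted p = 0.0185), and from day 3 to day 5 it changed by 0.01 (adjusted p = 0.981).

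The array lists more than 1 genomic place for miR-365 and for 107 other miRNAs. Of those 107, 58 were tested, of which 16 were counted as higher and 22 as lower from day 1 to day 5. The median change of the 58 was -0.06. Among all miRNAs tested, 31.7% were counted as higher and 29.0% as lower, with a median of 0.11. The largest fitted change was that of miR-92a-2*, detected on all 4 arrays of day 1 and on no later one (-6.50, limma adjusted p = 1.78e-05). It was followed by that of miR-196a, with detection on 2 arrays of day 5 (6.13, adjusted p = 1.24e-05). Next were miR-1306-3p, which fell by 4.54 (limma adjusted p = 1.27e-08), and miR-450a-2*, which fell by 4.27 (adjusted p = 0.00636). The fitted changes of miR-92a-2* and miR-196a rest on undetected values, so their places in this order do too. By the bound used for miR-193b, miR-92a-2* was at least 1.005-fold lower at day 5. The mean of miR-196a at day 5 was not above its bound for day 1.

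Markers of other cells moved over the same days. miR-223, abundant in myeloid cells and used here as the granulocytic marker, was detected on all 12 arrays and fell by 0.43 from day 1 to day 5 (limma adjusted p = 2.28e-05), a call lost with scaling to the median or to the 75th percentile of all miRNAs. The summed scanner signal of the erythroid markers miR-451 and miR-144, which both fell, was 29020 to 57393 at day 1, 810 to 1771 at day 3, and 124 to 295 at day 5. The megakaryocytic marker miR-126-3p was detected on all day 1 arrays and on no later one. Of 3 lymphoid markers, miR-181a fell by 0.80 from day 1 to day 5 (adjusted p = 0.000641). miR-181b rose by 0.79 from day 1 to day 3 (adjusted p = 0.000389) and was higher by 0.45 at day 5 without passing (adjusted p = 0.0101). miR-150 was detected at day 1 only. The part of these changes in the changes of the members was not tested.

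Of 5 stromal markers, 4 were counted as higher from day 1 to day 5, beside 31.7% of all miRNAs tested. Among the 4, miR-199a-3p was higher by 2.23 (limma adjusted p = 3.86e-06) and miR-199a-5p by 2.72 (adjusted p = 1.35e-07). The other two, miR-143 and miR-214, were detected on 3 arrays of day 5, and on 0 and 1 of day 1. Detection on all 12 arrays left 1 of the 4. The summed scanner signal of all 5 was 494 to 896 at day 1, 403 to 529 at day 3, and 2432 to 3545 at day 5. On the normalized scale 2 of 5 were counted as higher at day 3, beside 27.2% of all miRNAs tested. They were miR-199a-5p, by 0.63 (adjusted p = 0.00827), and miR-143 (fitted change 3.08, adjusted p = 0.00901). No array of day 1 or day 3 detected miR-143, so its fitted change compares undetected values and does not show a rise. The median change of the 5 was 0.63. The part of stromal cells in the changes of the members was not tested. miR-1a, miR-133a, and miR-133b, which mark muscle, were detected on no array, and the fourth muscle marker, miR-206, on 1 array of day 1.

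**Figure D5:**
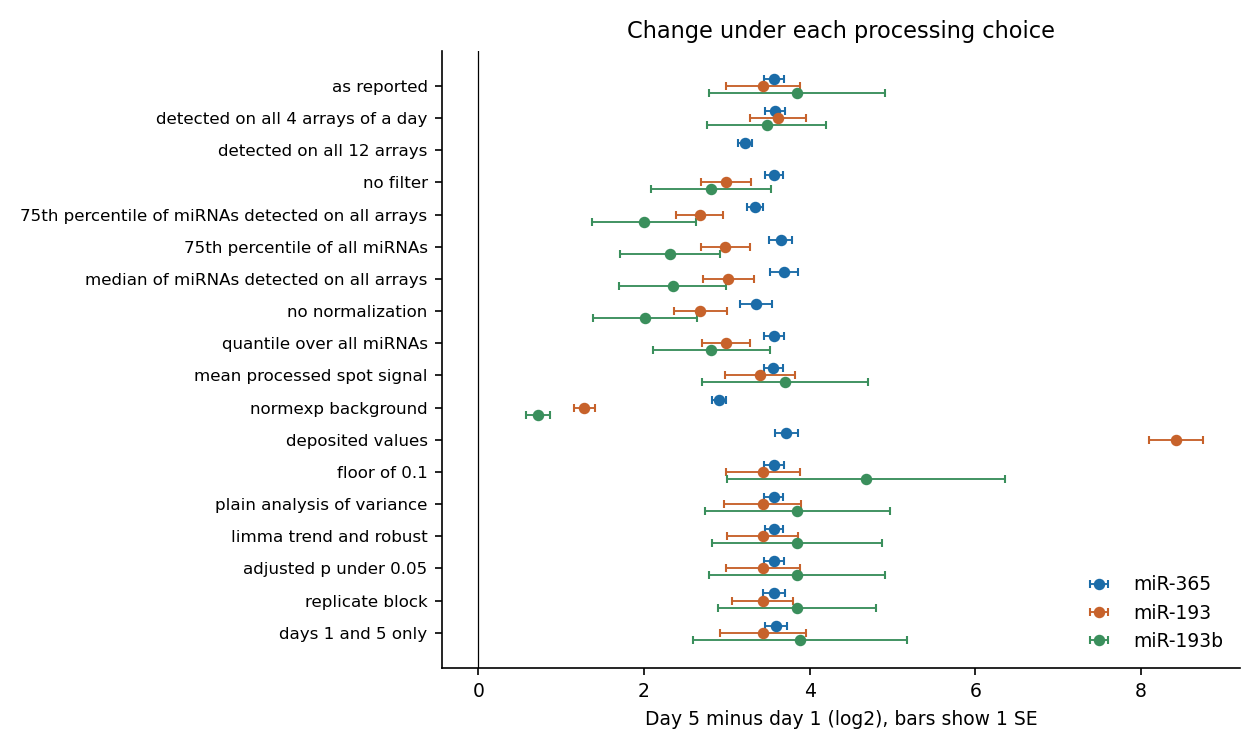
Change from day 1 to day 5 (log2, with 1 SE) of miR-365, miR-193, and miR-193b under each processing choice. miR-365 stays between 2.91 and 3.72, miR-193 between 1.28 and 8.42, and miR-193b between 0.72 and 4.68; a miRNA without a point had no value under that choice.

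Across the processing choices compared in the plot, the rise of miR-365 from day 1 to day 5 ranged from 2.91 to 3.72. That of miR-193 ranged from 1.28 to 8.42 and that of miR-193b from 0.72 to 4.68. All were above 0.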

How the data were processed

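RNA from 12 cultures was measured on 12 one-color miRNA arrays, 4 at each of days 1, 3, and 5. Feature Extraction 9.5.3.1 gave the intensity values deposited by the authors, which are linear and background-subtracted but not normalized between arrays, and the mark for detection that the authors deposited is 1 or 0. The table of log2 values that the authors deposited holds their quantile normalized signals from GeneSpring and was used as an alternative only.

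For 334 miRNAs with a detection mark on any array, total signals were quantile normalized in limma 3.58.1 (R 4.3.3), raised to a floor of 1 (372 values, 9.28%), and converted to log2. lmFit and eBayes fitted 1 mean per day, with Benjamini-Hochberg adjustment and a threshold of 0.01. The fit was tested on simulated data. Tables and figures used Python 3.11.15, pandas 2.3.3, and matplotlib 3.10.9.

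The members and the lists were chosen with earlier results of these data known. The miRNAs named are the members, miR-193*, the 5 profiles most like each member, the 3 next above and below each in the order of change, and list members with the largest changes past the threshold. The lists were repressors of cyclin D1, brown fat, NF-kB, several genomic places, and erythroid, lymphoid, granulocytic, megakaryocytic, stromal, and muscle markers. The erythroid list also named miR-144* and miR-486, not analysed here. Sequences and gene bounds come from RefSeq tables of GRCm38.p6, and probes from the array files. Alternatives changed the filter, scaling, background correction, floor, and test, added the replicate number as a block, and left out each array in turn.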

Additional observations from a re-analysis of the deposited data

Results flagged for a closer look

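Among 24 groups of 4 values (4 miRNAs, 3 days, normalized and scanner values), 4 held an array far from the other 3. Chance gives about 1 in 20 for independent groups. The count cannot be set against that rate, since normalized and scanner values come from the same arrays. For miR-193 at day 1, replicate 2 had a normalized log2 value of 3.87 and the others 5.90 to 6.19. For miR-193b at day 3, replicate 4 had a normalized value of 8.50 and the others 7.61 to 7.74, and its scanner signal was 264 with the others at 132 to 148. For miR-193* at day 1, replicate 2 had a normalized value of 4.63 while the others were at the floor, none of them detected. With the others all at the floor, any value above it would have been flagged.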

How the results depend on the processing

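The rises of miR-365 and miR-193 from day 1 kept their direction and their side of the threshold under every alternative that gave a value and with each array left out. For miR-193b, the rise to day 3 was no longer past the threshold without normalization (2.01) and with a floor of 0.1 (5.02), and with arrays left out it ranged from 3.07 to 4.95 and missed the threshold in 6 of 12 cases. Its rise to day 5 missed it with no filter (2.81), with scaling to the 75th percentile of miRNAs detected on all arrays (2.0), without normalization (2.01), with a floor of 0.1 (4.68), with the plain analysis of variance (3.85), and with days 1 and 5 only (3.88). With arrays left out it ranged from 2.73 to 4.61 and missed the threshold in 9 of 12 cases, all but those without day 1 replicate 1, 2, or 4. Day 5 minus day 3 turned positive without normalization for miR-193 (0.35) and miR-193b (0.001). For miR-193* it turned positive with no filter (0.25), the 75th percentile of all miRNAs (0.0202), no normalization (0.44), quantile normalization over all miRNAs (0.25), and normexp (0.10), and with arrays left out it ranged from -0.95 to 0.91. The rise of miR-193* ranged from 3.25 to 4.78 (day 3) and from 2.78 to 4.97 (day 5) with arrays left out, and passed only without day 5 replicate 4. The cause was not tested.

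Of all miRNAs, the F test counted 210, and 114 among those detected on all 12 arrays. With the 2-fold limit it counted 156, and 58 with detection on all 12, 89 with normexp, and 98 with the deposited values. Counts of higher miRNAs at day 3 against day 1 went from 91 to 40 (detected on all 12), 53 (75th percentile of all), 55 (median), and 29 (no normalization), and of lower ones to 40 (detected on all 12) and 50 (deposited values). At day 5 against day 1 higher counts went from 106 to 58 (detected on all 12) and 65 (no normalization), and lower to 51 (detected on all 12). At day 5 against day 3 higher counts went from 49 to 25 (75th percentile of detected), 22 (75th percentile of all), 81 (no normalization), and 30 (deposited values), and lower to 18 (75th percentile of all) and 5 (no normalization). The share of higher calls at day 3 against day 1 was 52.0%, and 19.0% without normalization. At day 5 against day 3 it was 57.6%, and 94.2% without normalization, 33.8% with the 75th percentile of detected miRNAs, and 42.3% with the deposited values. Without normalization the median change of all miRNAs was -0.77, -0.50, and 0.36 in these 3 comparisons (day 3 and day 5 against day 1, then day 5 against day 3).

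Of the 5 profiles most like miR-365, 1 was shared with Spearman correlation and 3 each without normalization and with the 75th percentile of detected miRNAs. Of those of miR-193, 1 each was shared with these scalings, and of those of miR-193b, 2 each with Spearman correlation and both scalings.

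The replicate number as a block changed no call of the 3 members, and the change of miR-193b from day 1 to day 5 stayed at 3.85 (SE 0.95). Same-numbered arrays of different days deviated together in 11 of 12 pairs at a correlation over 0.1 (0.0868 to 0.784), and 10 of 12 arrays correlated best with their own number, a hint from the data and not from the design. miR-193 and miR-193b had no value with detection required on all 12 arrays, and the deposited values gave no day 1 value for miR-193b.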
